A study of Mus musculus with 8 samples.

Results

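The macrophage marker genes of mouse gastrocnemius muscle are described here as a set of 10 genes, named by their Ensembl row IDs, among the 17352 genes measured. They are Cd68, Adgre1, Csf1r, Lyz2, Mrc1, Cd163, C1qa, C1qb, C1qc and Itgam, and all 10 had a value on every array. They were taken as markers of macrophages and not by their values, although earlier results of these data were known when they were chosen. The gastrocnemius is a large calf muscle, and RNA of the left hindlimb muscle was profiled on 8 arrays, 1 per animal. The animals were 24 weeks old and of C57BL/6 background, 4 labelled wild type and 4 labelled Anxa2 knockout. Anxa2 is the gene of annexin A2, which binds membrane lipids in the presence of calcium. The labels name no injury or drug treatment, the series title concerns muscle repair, and how the Anxa2 allele was made is not given in the sources used here.

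Macrophages are phagocytes that live between the fibres of resting muscle and gather in large numbers after injury, when they clear dead fibres and then support regrowth. They depend on the growth factor receptor encoded by Csf1r. Resident macrophages carry scavenger receptors such as those encoded by Mrc1 and Cd163, and they are a main source of C1q, the recognition protein that starts the classical complement pathway. In whole-muscle RNA, fewer macrophages and less marker RNA per macrophage cannot be told apart.

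Each value below is a log2 expression level from the RMA procedure, which corrects background, brings the arrays to a common distribution and combines the probes of a gene. A step of 1 on this scale is a 2-fold change, and levels are compared between animals for the same gene only. Array medians lay between 4.95 and 5.09. Wild type replicate 4 stood apart, with a mean correlation of 0.978 with the other arrays against 0.988 to 0.991 for the rest. It and knockout replicate 2 had the narrowest distributions, with interquartile ranges of 2.77 and 2.88 against 3.06 to 3.16 in the other arrays. Results are therefore also given without wild type replicate 4 and without both. The row of Anxa2 and the rows of other cell types' markers, muscle fibre markers included, carry no gene names in the files or tables used here. Neither the genotype nor the tissue label was therefore checked against its own genes.

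Most markers varied more among the wild-type animals than among the knockout animals, and no marker passed the test between the genotypes. Averaged over the 10 genes, the log2 level was 6.24, 5.81, 6.35 and 6.73 in wild type replicates 1 to 4, and 6.16, 6.27, 6.22 and 6.23 in knockout replicates 1 to 4. Wild type replicate 2 was thus the lowest of the 8 animals and wild type replicate 4 the highest, 1.88-fold apart, and the 4 knockout animals lay between them. Wild type averaged 6.28 ± 0.38 and the knockout 6.22 ± 0.05 (SD, n = 4 each). Their difference of -0.07 was smaller than the pooled SD of 0.27, and no test was made on this average. Single markers spread more within the knockout than the average did, with SDs from 0.06 for Csf1r to 0.39 for Mrc1.

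**Figure D1:**
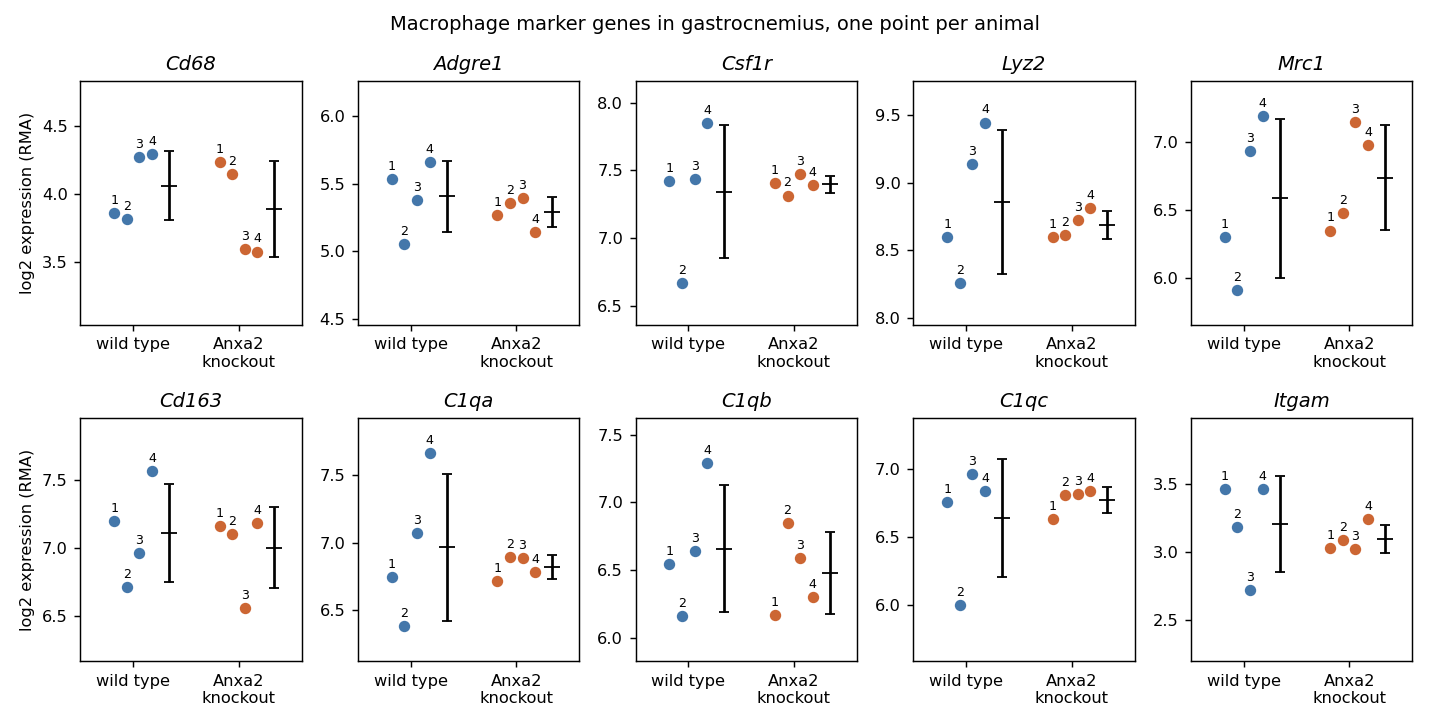
Log2 expression (vertical axis, RMA scale, the same span in every panel) of each marker gene in 4 wild-type (blue) and 4 Anxa2 knockout (orange) animals. Points are single animals with their replicate number, and bars are the mean ± SD of 4. The knockout points fall within the wild-type range for 8 of the 10 genes.

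The C1q chains come first, since C1q is assembled from the products of 3 genes, C1qa, C1qb and C1qc. In the RefSeq annotation these lie side by side on chromosome 4, with C1qc between the others and 0 other protein-coding genes among them. C1qa (ENSMUSG00000036887_at) read 6.74, 6.38, 7.07 and 7.66 in wild type and 6.72, 6.89, 6.89 and 6.78 in the knockout. Its wild-type values spanned 2.43-fold and its knockout values 1.13-fold, so that every knockout animal lay inside the wild-type range. C1qb (ENSMUSG00000036905_at) read 6.54, 6.16, 6.64 and 7.29 in wild type and 6.17, 6.85, 6.59 and 6.30 in the knockout. For both chains wild type replicate 4 was the highest animal and wild type replicate 2 the lowest.

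C1qc (ENSMUSG00000036896_at) read 6.76, 6.00, 6.96 and 6.84 in wild type and 6.63, 6.81, 6.81 and 6.84 in the knockout. Wild type replicate 2 was again the lowest, but wild type replicate 4 did not stand above the others. After each gene was centred on its mean, C1qa exceeded C1qc by 0.64 in wild type replicate 4 and C1qb exceeded C1qc by 0.59 there, while C1qa and C1qb differed by 0.04. In the other 7 animals the centred difference of C1qa and C1qc lay between -0.24 and 0.20. The mean of the 3 chains was 6.75 ± 0.45 in the wild-type animals and 6.69 ± 0.15 in knockout animals (SD, n = 4 each), so that it differed by -0.07, against a pooled SD of 0.34.

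Sequence upstream of the starts of C1qb and C1qc is shown because these neighbouring genes differed in wild type replicate 4. Each run is the 250 bases before the start in RefSeq, build GRCm38.p6, written 5′ to 3′ on the gene's own strand. C1qb lies at chr4:136886201-136886450 and C1qc at chr4:136892915-136893164, both on the minus strand. Capitals mark the letters GAGGAA or, on the opposite strand, TTCCTC, the purine-rich box known to be bound by PU.1, the product of Spi1 and a master transcription factor of macrophages.
C1qb: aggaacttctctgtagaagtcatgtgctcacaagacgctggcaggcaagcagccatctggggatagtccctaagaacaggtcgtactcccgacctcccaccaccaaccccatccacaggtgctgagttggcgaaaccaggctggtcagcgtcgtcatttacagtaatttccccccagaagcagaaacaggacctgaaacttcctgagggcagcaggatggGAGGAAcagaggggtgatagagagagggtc
C1qc: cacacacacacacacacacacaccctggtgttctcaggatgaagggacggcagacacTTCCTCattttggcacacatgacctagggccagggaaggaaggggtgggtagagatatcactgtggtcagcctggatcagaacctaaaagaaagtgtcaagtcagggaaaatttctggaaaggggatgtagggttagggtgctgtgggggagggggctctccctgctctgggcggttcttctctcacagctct

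The box began 30 bases before the start of C1qb and 193 bases before that of C1qc, where it lay on the opposite strand. A window of this kind was present for 7 of the 10 markers, and 5 of the 7 (Cd68, Mrc1, C1qb, C1qc and Itgam) held the box on either strand. Of all 32851 such windows in the table, 23.3% held it. These matches describe letters in the window and not binding in this tissue.

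Among the receptors, Csf1r encodes the receptor for colony-stimulating factor 1, on which macrophage survival depends. Csf1r (ENSMUSG00000024621_at) read 7.42, 6.67, 7.43 and 7.85 in wild type and 7.41, 7.31, 7.47 and 7.39 in the knockout. The knockout animals spanned 1.11-fold and the wild-type animals 2.27-fold, with wild type replicate 2 alone below 7 and wild type replicate 4 alone well above the rest. Adgre1 encodes F4/80, a surface receptor widely used to identify mouse macrophages. Adgre1 (ENSMUSG00000004730_at) read 5.54, 5.05, 5.38 and 5.66 in wild type and 5.26, 5.36, 5.40 and 5.14 in the knockout, with the same animals at its ends.

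Itgam encodes CD11b, the alpha chain of complement receptor 3, which neutrophils and monocytes carry as well. Itgam (ENSMUSG00000030786_at) read 3.47, 3.18, 2.72 and 3.47 in wild type and 3.03, 3.09, 3.02 and 3.25 in the knockout. Its animals were ordered differently from the other receptors, with wild type replicate 3 the lowest and wild type replicates 1 and 4 equal at the top. Its mean level of 3.15 was below 3.63, the 25th percentile of all rows, and no detection call shows it to be above background. Differences of Itgam between animals are therefore uncertain.

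Lyz2 encodes lysozyme M, a bacterial cell wall-degrading enzyme of macrophages and neutrophils. Lyz2 (ENSMUSG00000069516_at) read 8.60, 8.26, 9.14 and 9.44 in wild type and 8.60, 8.61, 8.72 and 8.82 in the knockout. The wild-type animals spanned 2.28-fold, and the knockout animals lay within 1.16-fold of each other near the middle of that range.

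Mrc1 and Cd163 encode scavenger receptors of resident and repair-type macrophages, the mannose receptor CD206 and the haptoglobin-haemoglobin receptor CD163. Mrc1 (ENSMUSG00000026712_at) read 6.30, 5.91, 6.94 and 7.19 in wild type and 6.35, 6.48, 7.15 and 6.98 in the knockout. It had the widest range of the 10 markers, 2.43-fold, and unlike C1qa and Csf1r it also spread within the knockout, over 1.74-fold. In both genotypes replicates 3 and 4 were high and replicates 1 and 2 low, with means of 7.06 and 6.26 over the 4 animals of each kind and a gap of 0.46 between them.

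Cd163 (ENSMUSG00000008845_at) read 7.20, 6.71, 6.96 and 7.57 in wild type and 7.16, 7.10, 6.55 and 7.18 in the knockout. Its lowest animal was knockout replicate 3, which had the second highest Mrc1 value. The centred difference of Mrc1 and Cd163 was 0.99 in knockout replicate 3, between -0.50 and 0.37 in the wild-type animals and between -0.42 and 0.19 in the other knockout animals. Within the knockout alone it spanned 1.41 on the log2 scale.

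The pattern of Mrc1 by replicate number was looked for in all markers after it had been seen. In 3 of the 10 markers, Mrc1, Lyz2 and C1qc, replicates 3 and 4 of both genotypes lay above replicates 1 and 2, although for C1qc by 0.01 only. The same division separated 3.26% of all rows in either direction. The labels do not say what the replicate numbers stand for, and no batch is named there.

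**Figure D2:**
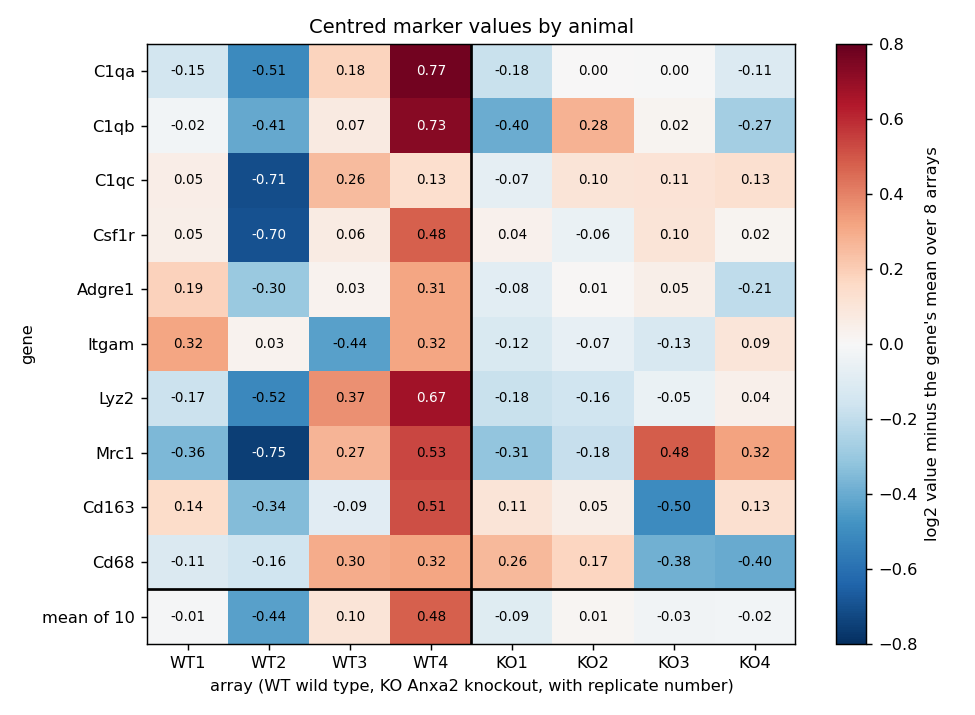
Log2 value of each marker minus that gene's mean over the 8 arrays (colour and printed number), with arrays in columns, genes in rows and the mean of the 10 genes at the bottom. Wild type replicate 2 reads -0.44 and wild type replicate 4 reads 0.48 in the bottom row, while the knockout arrays lie between -0.09 and 0.01.

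Cd68 encodes macrosialin, a lysosomal membrane glycoprotein of macrophages, and it followed another order than the remaining markers. Cd68 (ENSMUSG00000018774_at) read 3.86, 3.82, 4.27 and 4.29 in wild type and 4.24, 4.15, 3.59 and 3.57 in the knockout. Wild type replicates 3 and 4 and knockout replicates 1 and 2 lay between 4.15 and 4.29, and the other 4 animals between 3.57 and 3.86. Its level was low, with a mean at the 32.1 percentile of all rows.

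The row ENSMUSG00000086503_at, which those tables leave unnamed, was taken up because an earlier analysis of these data had found it to have 2 levels across genotypes. It divided the animals in the same way. It read 9.26, 9.13, 3.56 and 4.07 in wild type and 3.64, 4.01, 8.98 and 9.64 in the knockout. A second unnamed row from that analysis, ENSMUSG00000069045_at, ran the opposite way, with 2.71, 2.71, 9.05 and 8.40 in wild type and 8.70, 8.70, 2.64 and 2.59 in the knockout. Cd68 was higher by 0.44 in wild type and by 0.61 in the knockout where ENSMUSG00000086503_at was low. The groups so formed overlapped in each of the other 9 markers. Thus 1 of the 10 markers separated in this way, a share near the 7.32% of all rows that did.

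Within wild type alone, most other markers also had the higher mean where ENSMUSG00000086503_at was low, that is in replicates 3 and 4. The difference there was 0.96 for Mrc1, 0.86 for Lyz2, 0.80 for C1qa, 0.62 for C1qb, 0.60 for Csf1r and 0.52 for C1qc. It was 0.31 for Cd163, 0.23 for Adgre1 and -0.23 for Itgam. Within the knockout the same difference was -0.65 for Mrc1, -0.16 for Lyz2, -0.03 for C1qa, 0.06 for C1qb, -0.07 for Csf1r and -0.11 for C1qc. Cd163, at 0.26, kept its direction, while Adgre1 was at 0.04 and Itgam at -0.08. Each of these compares 2 animals with 2, and the difference between the genotypes was not tested. Within each genotype, these values cannot be told apart from those by replicate number, since both divide its animals alike. In the knockout that row was low in replicates 1 and 2, so Mrc1, higher in replicates 3 and 4, had a negative difference there. With the level of ENSMUSG00000086503_at as a covariate in limma, the residual SD of Cd68 went from 0.31 to 0.06. As Cd68 had already been seen to separate by this row, that fall follows from the separation and is no further result. The residual SDs of the other markers went from 0.20 to 0.50 without the covariate to 0.21 to 0.54 with it. The part of this row in the Cd68 values was not tested beyond that fit. The labels used here give neither sex nor batch. Whether the levels of ENSMUSG00000086503_at and ENSMUSG00000069045_at follow either was therefore not tested.

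**Figure D3:**
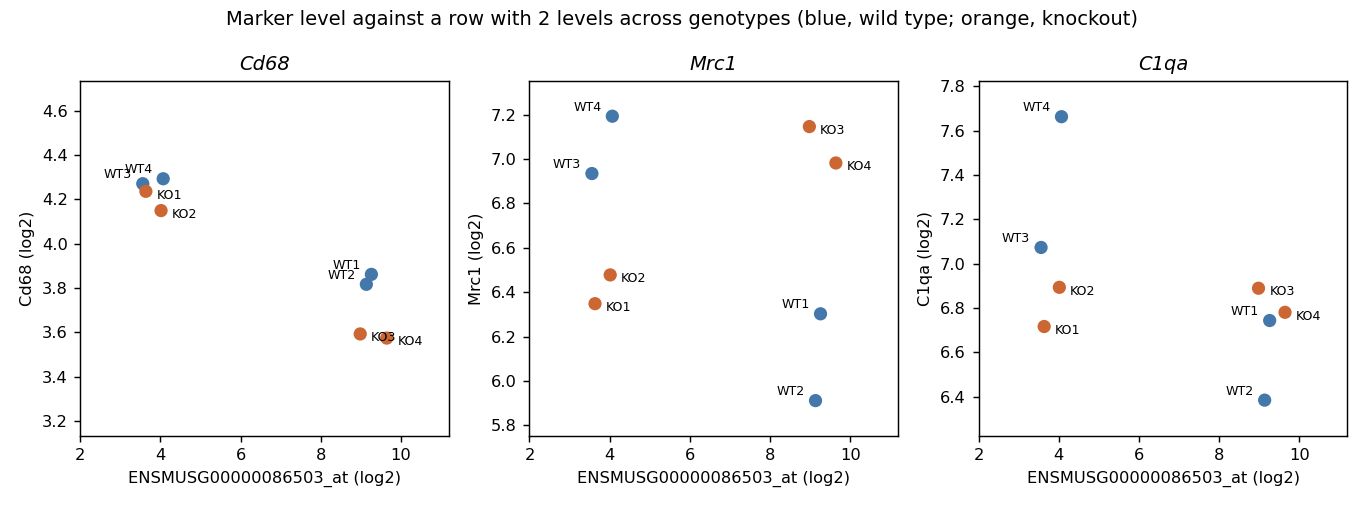
Log2 level of Cd68, Mrc1 and C1qa (vertical axes) against the log2 level of the row ENSMUSG00000086503_at (horizontal axis), each point an animal. Cd68 lies between 4.15 and 4.29 in the 4 animals where that row is below 5 and between 3.57 and 3.86 in the other 4, whereas Mrc1 and C1qa overlap.

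Upstream sequence is shown for Cd68 as the marker whose values divided the animals as ENSMUSG00000086503_at did. The sequence is from the same RefSeq table at chr11:69666171-69666420 on the minus strand. It is the 250 bases before the start, 5′ to 3′, with capitals on the same box, which began 225 bases before the start on the gene's own strand.
Cd68: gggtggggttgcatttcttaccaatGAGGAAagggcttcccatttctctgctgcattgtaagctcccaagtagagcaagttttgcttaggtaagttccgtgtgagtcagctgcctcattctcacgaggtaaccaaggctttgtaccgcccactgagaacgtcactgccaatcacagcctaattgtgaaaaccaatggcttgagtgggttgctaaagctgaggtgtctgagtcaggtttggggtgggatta

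The genotypes were compared by fitting limma to all 17352 rows, with Benjamini-Hochberg adjustment over all of them and a threshold of 0.05. None of the 10 markers passed, higher or lower in the knockout, and 0% of all rows did. At an unadjusted p under 0.05 limma likewise gave 0 of the 10 markers, against 1.55% of all rows. Without wild type replicate 4 and knockout replicate 2 it gave 0 markers and 4.04% of all rows. The share of all rows thus moved with the arrays used, and why was not tested. In 0 of the 10 markers were the knockout animals all above or all below the wild-type animals, against 1.31% of all rows. Means were higher in the knockout for 3 markers and lower for 7, with a median difference of -0.11 over the markers and -0.01 over all rows.

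The 3 markers with a higher knockout mean were Mrc1, C1qc and Csf1r. Mrc1 averaged 6.59 ± 0.59 in wild type against 6.74 ± 0.39 with Anxa2 knocked out (SD, n = 4 each), and the difference was 0.15 (SE 0.28, 95% interval -0.47 to 0.78). C1qc averaged 6.64 ± 0.44 and 6.77 ± 0.09, a difference of 0.13 (SE 0.19, interval -0.29 to 0.55). Csf1r averaged 7.34 ± 0.49 and 7.40 ± 0.06, a difference of 0.05 (SE 0.21, interval -0.41 to 0.51).

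Of the 7 markers with a lower knockout mean, C1qb had the largest difference, with 6.66 ± 0.47 in wild type and 6.48 ± 0.30 in the knockout, or -0.18 (SE 0.23, interval -0.69 to 0.33). Lyz2 averaged 8.86 ± 0.53 and 8.69 ± 0.10, a difference of -0.17 (SE 0.22, interval -0.67 to 0.32). Cd68 averaged 4.06 ± 0.26 and 3.89 ± 0.35, a difference of -0.17 (SE 0.19, interval -0.59 to 0.24), and it had the smallest unadjusted limma p of the 10, 0.38. The differences of C1qa, Adgre1, Itgam and Cd163 were -0.15, -0.12, -0.11 and -0.11. The limma adjusted p was 1.00 for each of the 10 markers.

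All 10 intervals lay within a 2-fold change either way, as did those of 17077 of all 17352 rows. Within 1.5-fold lay 5 of the 10, against 15118 of all rows. The widest of the 10 reached a 1.72-fold higher level of Mrc1 in the knockout, and the interval of C1qb reached a 1.62-fold lower one. The median half-width was 0.45 for the markers and 0.29 for all rows, so that differences of the markers were measured less closely than those of a typical row. Genotype took up between 0.75% and 9.74% of a marker's sum of squares over the 8 animals, with a median of 5.72% over the markers and 6.02% over all rows. These p-values rest on 4 animals a group, and the number of arrays limits their precision.

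**Figure D4:**
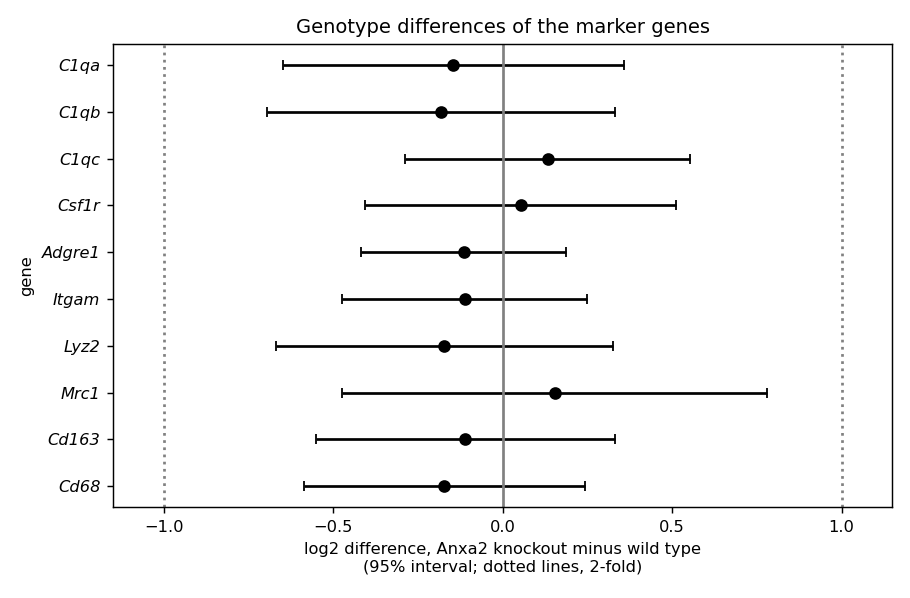
Log2 difference of each marker, Anxa2 knockout minus wild type (points), with 95% intervals of the limma fit (bars). Every interval spans 0 and ends within the dotted lines at a 2-fold change.

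Most markers were more widely spread in wild type than in the knockout. The wild-type SD exceeded the knockout SD in 9 of the 10 markers, all except Cd68, and the ratio was 7.67 for Csf1r, 6.28 for C1qa, 5.22 for Lyz2 and 4.61 for C1qc. The median ratio was 2.86 over the markers and 1.28 over all rows, of which 64.1% had the larger SD in wild type. For 8 markers all knockout animals lay within the wild-type range, against 30.0% of all rows. No test was made of this difference in spread.

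The ends of the wild-type range were set by 2 animals. Wild type replicate 4 was the highest animal, alone or equal with another, for 9 of the 10 markers, against 36.9% of all rows. Wild type replicate 2 was the lowest for 7 markers, against 14.6% of all rows. Without wild type replicate 4 the median SD ratio stayed at 2.90 over the markers and fell to 0.82 over all rows. Without wild type replicate 2 it was 1.30 over the markers and 1.33 over all rows, so that the excess of the markers' median ratio was not seen without that animal. The wild-type SD was then still the larger in 9 of the 10 markers, against 64.3% of all rows, and without wild type replicate 4 it was the larger in 7, against 39.8%.

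The same animals set the direction of the genotype difference. Without wild type replicate 2, all 10 markers had a lower mean in the knockout and the mean over the 10 genes differed by -0.22. Without wild type replicate 4, 7 markers had a higher mean in the knockout and the mean over the 10 genes differed by 0.08. Leaving out any of the other 6 arrays kept that difference between -0.08 and -0.04. None of these 8 fits put a marker past the threshold.

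**Figure D5:**
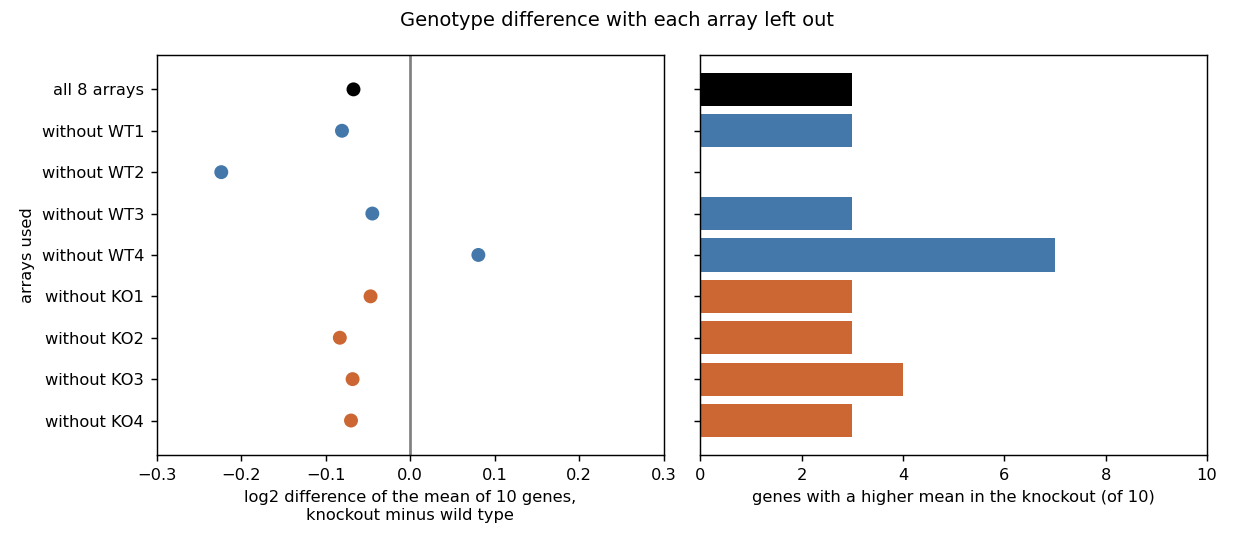
Left, log2 difference of the mean of the 10 markers, knockout minus wild type, with all 8 arrays (black) and without each wild-type (blue) or knockout (orange) array. Right, number of the 10 markers with a higher mean in the knockout, which runs from 0 without wild type replicate 2 to 7 without wild type replicate 4.

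The markers resembled each other to different degrees across the 8 animals. As a description, each marker was set against the mean of the centred values of the other 9, a comparison in which the points share their arrays and in which no p is given. Pearson's r was 0.96 for C1qa (Spearman's rho 0.90), 0.91 for Csf1r (0.55) and 0.91 for Lyz2 (0.79), and only 0.05%, 0.69% and 0.81% of the rows outside the set were as high or higher. It was 0.83 for C1qb, 0.82 for Adgre1, 0.70 for C1qc, 0.65 for Mrc1 and 0.63 for Cd163. Cd68 at 0.38 and Itgam at 0.14 were passed by 40.9% and 56.7% of the other rows.

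This likeness depended in part on wild type replicates 2 and 4, which lay farthest from the median of the other markers' mean each time. Without them r was 0.81 for C1qa, 0.87 for C1qc, 0.57 for Lyz2, 0.37 for C1qb and 0.11 for Adgre1. It was -0.09 for Csf1r, -0.21 for Cd68, -0.27 for Mrc1, -0.45 for Cd163 and -0.69 for Itgam. Among the 6 remaining animals C1qa and C1qc thus kept the closest resemblance, C1qb lost much of it, and 5 of the 10 markers had an r below 0. Outside the set, the rows most like the mean of the 10 markers were ENSMUSG00000027394_at (r = 0.99, n = 8) and ENSMUSG00000034645_at (r = 0.99, n = 8). Without wild type replicates 2 and 4 these values were 0.90 and 0.91, and the median r of all rows outside the set was 0.26 with and -0.01 without them. Both rows are likewise unnamed here.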

How the data were processed

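The deposited table holds log2 expression values made by the authors with RMA in R 3.1.2, per the submitters' processing notes, with 1 row per Ensembl gene ID and no missing value. Per the labels' protocols, total RNA was labelled with an Affymetrix 3′ IVT kit. How probe sets were defined and filtered, and when arrays were scanned, is not given in the sources used here. Detection calls were not used here.

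The 10 IDs were paired with symbols by the list that defines the set. The RefSeq name table (GRCm38.p6, 49997 genes, 0 with an Ensembl ID) holds all 10 symbols but names no row, so the other gene lists (further macrophage genes, complement, neutrophil, lymphocyte, endothelial, fibroblast, adipocyte, Schwann, satellite, muscle fibre and erythroid markers) were not analysed here. Members and lists were chosen with earlier results of these data known. Named rows were all members and the 5 rows with the highest Pearson r with their mean, of which 2 are given. The unnamed rows ENSMUSG00000086503_at (the covariate) and ENSMUSG00000069045_at fall outside that rule and were taken from an earlier analysis of these data.

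The genotypes were compared in R 4.3.3 with limma 3.58.1 (lmFit, eBayes, genotype as the only term, no filter, two-sided, Benjamini-Hochberg over 17352 rows), and the fit was tested on simulated data. Python 3.11.15 and matplotlib 3.10.9 drew the figures. Alternatives were a replicate block, trended and robust moderation, array weights, median centring, quantile and cyclic loess normalization, a filter on low rows, a covariate, and arrays left out. Scanner files were not used here, so another background correction was not tried. Replicates are labelled as biological, 1 array each.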

Additional observations from a re-analysis of the deposited data

Results flagged for a closer look

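Each marker, the mean of the 10 markers and the mean of the 3 C1q chains were checked within each genotype for 1 animal far from the other 3. Of these 24 checks, which are not independent, 2 found such an animal, where chance gives about 1 in 20. Cd163 read 6.55 in knockout replicate 3, against 7.10 to 7.18 in the other knockout animals. C1qc read 6.63 in knockout replicate 1, against 6.81 to 6.84 in the other knockout animals, a distance that is small beside the wild-type range of 6.00 to 6.96.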

How the results depend on the processing

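Over 17 alternative settings, 169 differences of single markers were recomputed, and 0 passed an adjusted p of 0.05. The filter on low rows left out Itgam. The sign turned in 14 of the 169. With array weights the difference was 0.0061 for Lyz2, 0.031 for Cd163 and 0.045 for C1qa. Without wild type replicate 4 and knockout replicate 2 together it was 0.046 for Lyz2, 0.0079 for Cd163 and 0.062 for C1qa. When single arrays were left out, the difference ran from -0.17 to 0.22 for Csf1r, -0.071 to 0.36 for Mrc1, -0.080 to 0.24 for C1qc, -0.37 to 0.022 for Lyz2, -0.24 to 0.042 for Cd163, -0.34 to 0.086 for C1qa and -0.35 to 0.029 for C1qb. Cd68, Adgre1 and Itgam kept a lower knockout mean in every alternative that fitted them. The count of markers at an unadjusted p under 0.05 ran from 0 to 1 over the single arrays left out, the 1 being Itgam without wild type replicate 3 (-0.28), and it was 0 in the other settings. The mean over the 10 markers differed by -0.22 to 0.08 with single arrays left out and by -0.08 to 0.06 in the other settings. It was above 0 with array weights (0.06), without wild type replicate 4 (0.08) and without it and knockout replicate 2 (0.06). For the 3 C1q chains these ranges were -0.26 to 0.11 and -0.09 to 0.05. Leaving Cd68 and Itgam out of the mean, chosen after seeing the data, gave -0.05, and scaling each marker to the same SD, also chosen then, gave -0.08. Over all rows, 1 row passed in place of 0 with the replicate block, array weights, median centring, quantile normalization and cyclic loess, and it was no marker. The cause of these changes was not tested. After subtraction of the group means, wild-type and knockout arrays of the same number correlated at -0.07, -0.25, 0.18 and -0.24 over all rows and at 0.20, 0.36, 0.39 and 0.22 over the 10 markers. The first gave no regular sign of pairing. The second were positive in all 4 pairs, but the 10 markers include Mrc1, Lyz2 and C1qc, already seen to divide by replicate number. In all 4 pairs the wild-type and knockout arrays had opposite levels of ENSMUSG00000086503_at, for example 9.26 and 3.64 for replicate 1. Whether the numbers pair the animals is not settled. The replicate block left 0 markers past the threshold. It moved the SE of Mrc1 from 0.28 to 0.15, with its difference at 0.15. Mrc1 had already been seen to divide by replicate number in both genotypes, so that fall follows from the division and is no further result. The block raised the SE of Cd68 (0.19 to 0.22), Adgre1 (0.14 to 0.15) and C1qb (0.23 to 0.25) and lowered that of each remaining marker. Itgam, whose mean lay below the 25th percentile of all rows, is limited by low signal.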
